A study of Homo sapiens with 18 samples.

Results

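The 5 genes described here are HTR2B, CDH1, ECM1 and RAB31, which are high in the class 2 expression profile of uveal melanoma, and PRAME. They were taken by symbol from a gene table of 26475 rows, and each had 1 row. Mel92.1 and MP41, both established from uveal melanoma, were treated with DMSO (the solvent control), UNC0642 or A366, and their bulk RNA was sequenced. Both compounds inhibit the histone methyltransferase EHMT2 (G9a) and can also inhibit EHMT1, and the study used them to look for genes that EHMT2 keeps low. There were 6 groups of 3 libraries. The inhibitors were given at 1 µM for 48 h, and the labels give no time for DMSO. The labels state that replicates were biological, but do not say how cultures were kept apart, so p-values measure the spread between these libraries. Each line stands for 1 tumor, so a difference between the lines cannot be told apart from a difference between patients.

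Uveal melanoma arises from melanocytes of the eye, and primary tumors are sorted by gene expression into class 1, with low metastatic risk, and class 2, with high risk. The clinical panel reads genes that are high in class 2, genes that are high in class 1 and control genes, and PRAME is read beside it as a separate marker of risk. HTR2B encodes a Gq-coupled serotonin receptor, CDH1 encodes the adhesion protein E-cadherin, and ECM1 encodes a secreted glycoprotein of the extracellular matrix. RAB31 encodes a small GTPase of the RAB5 group that acts in vesicle traffic. PRAME encodes a cancer testis antigen that serves as a substrate receptor of a CUL2 ubiquitin ligase and represses retinoic acid receptor signaling. EHMT2 places the repressive mark H3K9me2, and no chromatin was measured in these libraries.

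In GENCODE release 29 on GRCh38, HTR2B lies on chromosome 2 (chr2:231108230-231125118, minus strand) and CDH1 on chromosome 16 (chr16:68737225-68835548, plus strand). ECM1 lies on chromosome 1 (chr1:150508062-150513789, plus strand), RAB31 on chromosome 18 (chr18:9708165-9862551, plus strand) and PRAME on chromosome 22 (chr22:22547701-22559361, minus strand). RefSeq promoters on GRCh38.p14 were matched for 3 of the 5 genes. The 250 bases before the start are printed here for ECM1, RAB31 and PRAME, the genes with a match. All were lower in Mel92.1 than in MP41, and a link of these sequences to that difference was not tested. CpG dinucleotides are in capitals, and PRAME is shown at the most upstream of its 3 RefSeq starts.

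ECM1 (chr1:150507859-150508108, plus strand): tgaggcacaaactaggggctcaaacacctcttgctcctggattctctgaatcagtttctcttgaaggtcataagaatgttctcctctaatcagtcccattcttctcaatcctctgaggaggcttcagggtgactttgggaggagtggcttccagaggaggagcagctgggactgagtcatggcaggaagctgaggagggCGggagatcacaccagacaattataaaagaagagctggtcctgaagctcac
RAB31 (chr18:9708051-9708300, plus strand): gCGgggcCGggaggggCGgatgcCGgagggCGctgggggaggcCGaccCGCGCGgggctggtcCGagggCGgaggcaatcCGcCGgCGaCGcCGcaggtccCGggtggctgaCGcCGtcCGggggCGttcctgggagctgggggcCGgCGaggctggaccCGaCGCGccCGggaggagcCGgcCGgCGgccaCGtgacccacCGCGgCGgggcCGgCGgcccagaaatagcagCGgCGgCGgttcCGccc
PRAME (chr22:22559266-22559515, minus strand): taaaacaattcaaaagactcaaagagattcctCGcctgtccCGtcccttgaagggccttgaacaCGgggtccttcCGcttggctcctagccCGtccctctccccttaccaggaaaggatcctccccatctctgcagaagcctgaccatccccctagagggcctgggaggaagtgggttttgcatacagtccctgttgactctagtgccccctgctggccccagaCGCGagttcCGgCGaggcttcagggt

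The sequences differed widely in CpG content. The ECM1 window held 1 CpG, and 6.06% of 35116 RefSeq promoter windows of this length held fewer. The RAB31 window held 40, more than 97.8% of the windows, and the PRAME window held 9 against a median of 11. The other 2 PRAME starts held 8 and 4. The E-box CACCTG, searched on both strands, was in none of these windows and in 17.5% of all windows. GGGCGG on either strand occurred once in the ECM1 window and 3 times in the RAB31 window, was not in the PRAME window shown, and was in 42.6% of all windows. CACGTG, which reads the same on both strands, was in the RAB31 window and in 6.35% of all windows.

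The table gave expected counts that totalled 23601156 to 62941462 per library, with a median of 41955693. Levels are given as CPM, a gene's count scaled to a common library total and corrected for library composition, and as mean ± SD with n = 3. RNA28S5, a ribosomal RNA, took 2.63% to 28.1% of the counts, with the highest share in Mel92.1 UNC0642 replicate 1. In MP41 it took 4.95%, 7.17% and 9.44% with A366, above the 2.63% to 4.43% of the DMSO and UNC0642 libraries. The share thus goes with A366 in MP41, and its part in the A366 results of that line was not tested. The 7 melanocyte markers summed to 21010 to 24412 CPM in Mel92.1 and 14996 to 16191 CPM in MP41. The 7 markers of other cell types summed to 26.6 to 36.5 CPM and 140 to 186 CPM, nearly all of it CD68, while PTPRC, CD3E, PECAM1 and COL3A1 stayed under 1 CPM in every library. In bulk RNA, fewer cells that express a gene and less RNA per cell cannot be told apart.

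The A366 libraries labelled replicates 2 and 3 went against their labels in both lines. In the DMSO libraries, 27 genes reached at least 20 CPM in Mel92.1 while not exceeding 0.05 CPM in MP41, and 33 genes showed the opposite. In these 4 libraries, the genes of the labelled line summed to 0.0233% to 0.0677% of their DMSO level, and those of the other line to 96.5% to 112%. In the remaining 14 libraries, the genes of the line that is not on the label stayed at or under 0.387%. The study's own published values per replicate also carry these libraries under the other line. They were therefore placed with the line whose genes they express, and each A366 result is also given as labelled and without the 4 libraries. Without them, A366 replicate 1 is the only A366 library of each line, and it is in the main fit too. As labelled, the A366 groups mix the lines.

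PRAME and ECM1 showed this by themselves. A366 replicates 2 and 3 with a Mel92.1 label held 223.8 and 238 CPM of PRAME and 192 and 216 CPM of ECM1. Their MP41-labelled counterparts held 0.218 and 0.0406 CPM of PRAME and 14.6 and 16.8 CPM of ECM1. All 4 fell among the libraries of the other line.

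**Figure D1:**
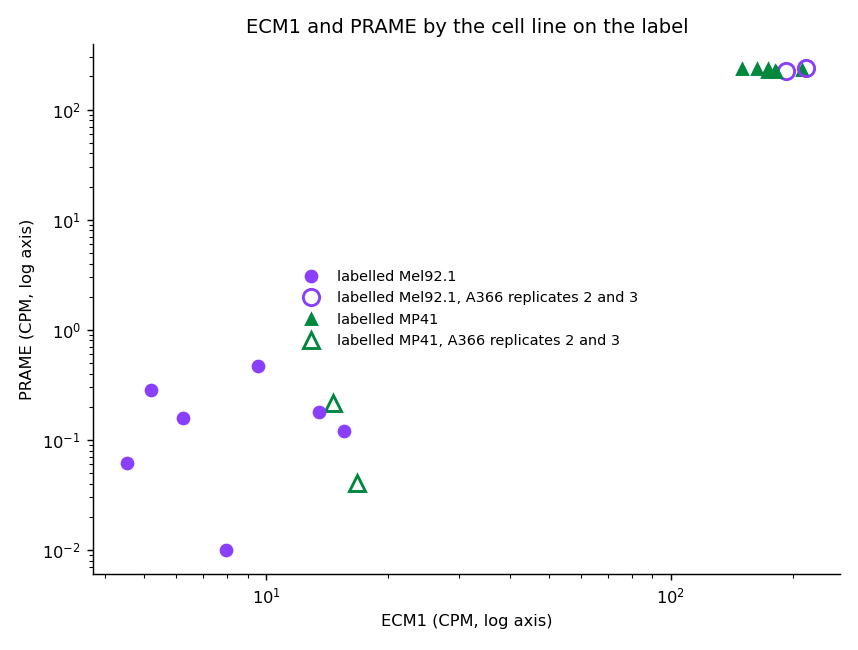
ECM1 (x axis, CPM, log scale) against PRAME (y axis, CPM, log scale) in each of the 18 libraries, with symbols and colors by the cell line on the label and open symbols for A366 replicates 2 and 3. The open circles, labelled Mel92.1, lie among the filled triangles at 223.8 and 238 CPM of PRAME, and the open triangles, labelled MP41, lie among the filled circles; the library with no PRAME count is drawn at 0.01 CPM.

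With DMSO, the lines differed most in PRAME and ECM1. MP41 had high PRAME and ECM1, whereas Mel92.1 had little ECM1 and only traces of PRAME. Both lines had HTR2B and RAB31 and only traces of CDH1. All 5 genes passed the test between the lines, 2 higher and 3 lower in Mel92.1, where 69.4% of the 15799 genes tested passed. A pass is therefore common in this comparison.

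PRAME held 232, 233 and 225 CPM in MP41 with DMSO and 0.0614, 0.160 and 0.283 CPM in Mel92.1. The Mel92.1 values rest on counts of 3, 6 and 11, and the groups were far apart. The log2 fold change of Mel92.1 against MP41 was -10.47 (SE 1.06, adjusted p = 2.12e-15, quasi-likelihood test of edgeR, Benjamini-Hochberg adjusted). It stayed between -11.06 and -9.98 in all 28 alternatives.

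ECM1 held 174, 164 and 180 CPM in MP41 and 4.54, 6.22 and 5.20 CPM in Mel92.1. Its level was 32.5-fold lower in Mel92.1 (log2 fold change -5.02, SE 0.17, edgeR adjusted p = 2.67e-14). RAB31 held 110, 119 and 119 CPM in MP41 and 61.0, 48.3 and 49.0 CPM in Mel92.1, also without overlap. It was 2.19-fold lower in Mel92.1 (log2 fold change -1.13, SE 0.12, edgeR adjusted p = 5.17e-08).

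HTR2B differed by 1.35-fold between the lines. It held 29.5, 29.7 and 28.8 CPM in Mel92.1 and 22.5, 20.6 and 22.2 CPM in MP41. The log2 fold change was 0.43 (SE 0.23, edgeR adjusted p = 0.0373), but the 95% interval of the difference in log2 CPM ran from -0.066 to 0.93. The difference passed in 18 of 28 alternatives and lost its call without any 1 of the 6 DMSO libraries, with adjusted p between 0.0561 and 0.102. It was 0.23 with adjusted p = 0.384 when libraries were scaled by their totals alone.

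CDH1 was at trace level in both lines. It held 34, 12 and 7 counts in Mel92.1 with DMSO (0.696, 0.319 and 0.180 CPM) and 4, 5 and 0 counts in MP41. The count of 0 allows up to 0.0652 CPM in that library, by counting error alone. The log2 fold change was 2.54 (SE 1.03, edgeR adjusted p = 0.0191). It became 1.87 without Mel92.1 DMSO replicate 1 (adjusted p = 0.111) and 1.97 without MP41 DMSO replicate 3 (adjusted p = 0.0730). The call held in 23 of 26 alternatives, and the highest edgeR adjusted p among them was 0.153.

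Per kilobase of the longest annotated transcript, the order in MP41 with DMSO was PRAME (81.3 ± 1.53 CPM per kb), ECM1 (56.3 ± 2.75), RAB31 (28.6 ± 1.16), HTR2B (9.68 ± 0.456) and CDH1 (0.0138 ± 0.0123). The same order held in MP41 with either inhibitor, and no neighbours overlapped. In Mel92.1 with DMSO, HTR2B (13.1 ± 0.216 CPM per kb) and RAB31 (13.0 ± 1.76) did not differ beyond their spread, followed by ECM1 (1.74 ± 0.276). CDH1 (0.0815 ± 0.0546) and PRAME (0.0594 ± 0.0393) overlapped at the bottom. With UNC0642 in Mel92.1, RAB31 (10.5 ± 1.92 CPM per kb) lay above HTR2B (5.28 ± 2.07) in mean, and their replicates did not overlap.

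**Figure D2:**
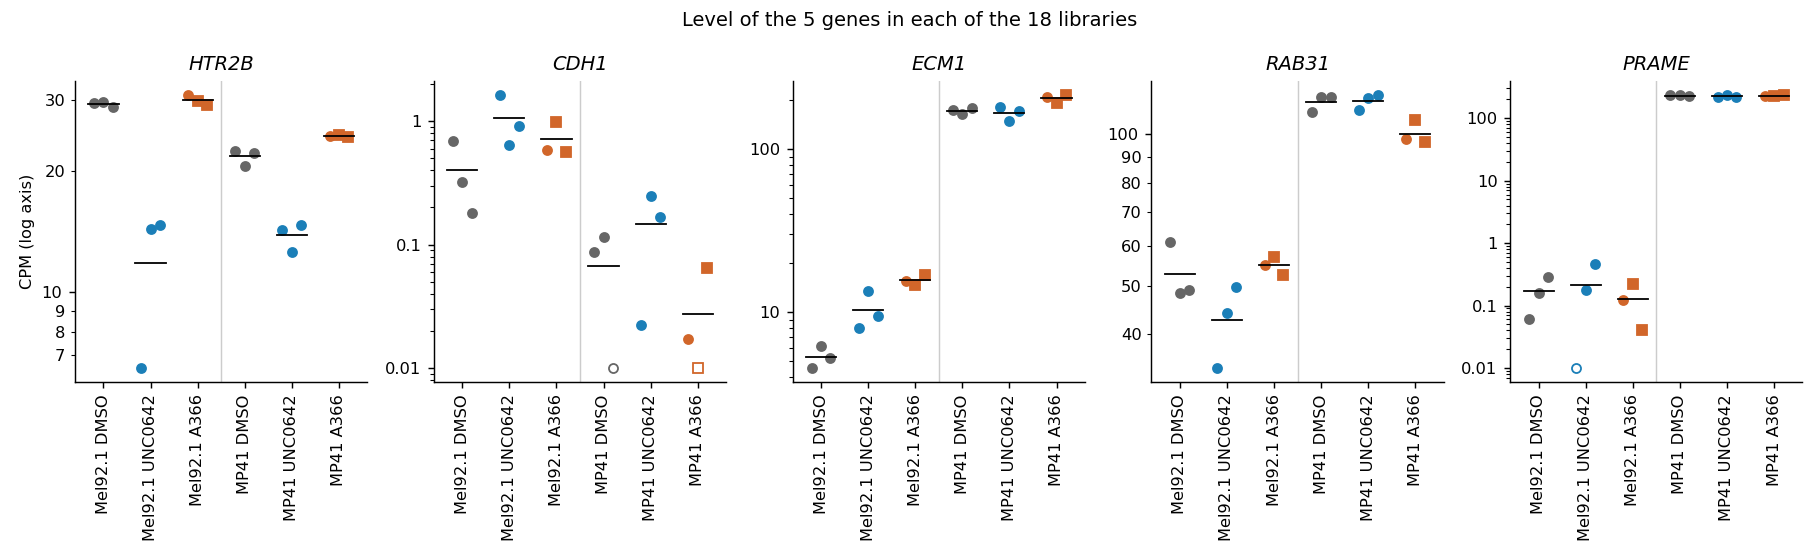
Level of each gene (CPM, log axis) in the 18 libraries, by line and treatment; points are libraries, bars are group means, squares are the A366 libraries that were placed with the other line, and open points are values of 0 drawn at 0.01 CPM. HTR2B was lower with UNC0642 in both lines, ECM1 was higher with A366 in both lines, and PRAME stayed at 218 CPM or more in every MP41 library.

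The comparison of UNC0642 with DMSO asked which of these genes respond to the first inhibitor. HTR2B fell in both lines, and it was the only member that passed in either. In Mel92.1, 0 of 4 members tested were higher and 1 was lower, against 0.688% of 14528 genes called. In MP41, 0 of 4 were higher and 1 was lower, against 0.241% of 14956 genes called. PRAME in Mel92.1 and CDH1 in MP41 were under the filter on low counts and were not tested within those lines.

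In MP41, HTR2B held 14.3, 12.6 and 14.7 CPM with UNC0642 against 22.5, 20.6 and 22.2 CPM with DMSO. Every UNC0642 library lay below every DMSO library. The level was 1.58-fold lower (log2 fold change -0.66, SE 0.064, edgeR adjusted p = 0.00672), the 7th smallest p of all genes tested. The call held in 16 of 19 alternatives, with log2 fold changes from -0.70 to -0.59. It was lost without MP41 DMSO replicate 1 (-0.63, adjusted p = 0.0574), without MP41 DMSO replicate 3 (-0.64, adjusted p = 0.0582) and as labelled (-0.66, adjusted p = 1). Without the 4 exchanged libraries the adjusted p was 0.00551.

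In Mel92.1, HTR2B held 6.50, 14.4 and 14.7 CPM with UNC0642 against 29.5, 29.7 and 28.8 CPM with DMSO. The groups were again apart, and replicate 1, the library with the highest RNA28S5 share and the lowest total, lay lowest. The level was 2.43-fold lower (log2 fold change -1.28, SE 0.32, edgeR adjusted p = 0.0426). Without replicate 1 of UNC0642, the log2 fold change was -1.01 with adjusted p = 3.88e-04. The direction held in all 19 alternatives, but the call held in 6: leaving out any of the other 8 Mel92.1 libraries gave log2 fold changes from -1.45 to -1.28 and adjusted p from 0.0679 to 0.187. As labelled, the value was -1.30 (adjusted p = 1), and without the 4 exchanged libraries it was -1.29 (adjusted p = 0.203).

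The HTR2B decrease in Mel92.1 was not shown to differ from that in MP41. The difference between the responses was -0.62 on the log2 scale (SE 0.32, edgeR adjusted p = 0.421).

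ECM1 did not pass with UNC0642 in either line. In Mel92.1 it held 7.96, 13.5 and 9.52 CPM against 4.54, 6.22 and 5.20 CPM with DMSO, with no overlap. The log2 fold change was 0.97 (SE 0.22, edgeR adjusted p = 0.0958), and it passed in 3 of 19 alternatives. One of these left out UNC0642 replicate 1 (1.11, adjusted p = 0.0222). In MP41 it held 181, 150 and 172 CPM against 174, 164 and 180 CPM, and the groups overlapped. The log2 fold change there was -0.045 (SE 0.084, edgeR adjusted p = 0.936), with a 95% interval of the difference from -0.25 to 0.16.

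The response of ECM1 to UNC0642 differed between the lines by 1.03 on the log2 scale, higher in Mel92.1 (SE 0.23, edgeR adjusted p = 0.0196). It was the 1 of 5 members that passed, against 0.601% of all genes. The difference passed in 19 of 28 alternatives and had adjusted p = 0.0875 without the 4 exchanged libraries and 1 as labelled. Leaving out any 1 of 5 libraries ended the call, with adjusted p from 0.0658 to 0.0766: Mel92.1 DMSO replicates 1 and 3, MP41 DMSO replicates 1 and 3 and MP41 UNC0642 replicate 2.

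RAB31, CDH1 and PRAME did not pass with UNC0642. RAB31 in Mel92.1 held 34.3, 44.2 and 49.7 CPM against 61.0, 48.3 and 49.0 CPM, with overlap (log2 fold change -0.30, SE 0.16, edgeR adjusted p = 0.503). In MP41 its log2 fold change was 0.0014 (95% interval of the difference -0.13 to 0.14, edgeR adjusted p = 0.998). CDH1 in Mel92.1 held 27, 25 and 49 counts (1.64, 0.640 and 0.919 CPM), overlapping DMSO (log2 fold change 1.36, SE 0.58, edgeR adjusted p = 0.503). In MP41 it held 1, 12 and 7 counts.

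PRAME in MP41 held 219, 235 and 218 CPM with UNC0642 against 232, 233 and 225 CPM with DMSO. The groups overlapped, and the log2 fold change was -0.042 (edgeR adjusted p = 0.912). The 95% interval of the difference ran from -0.13 to 0.048. In Mel92.1, PRAME held 0, 7 and 25 counts with UNC0642. The count of 0, in replicate 1, allows up to 0.182 CPM.

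**Figure D3:**
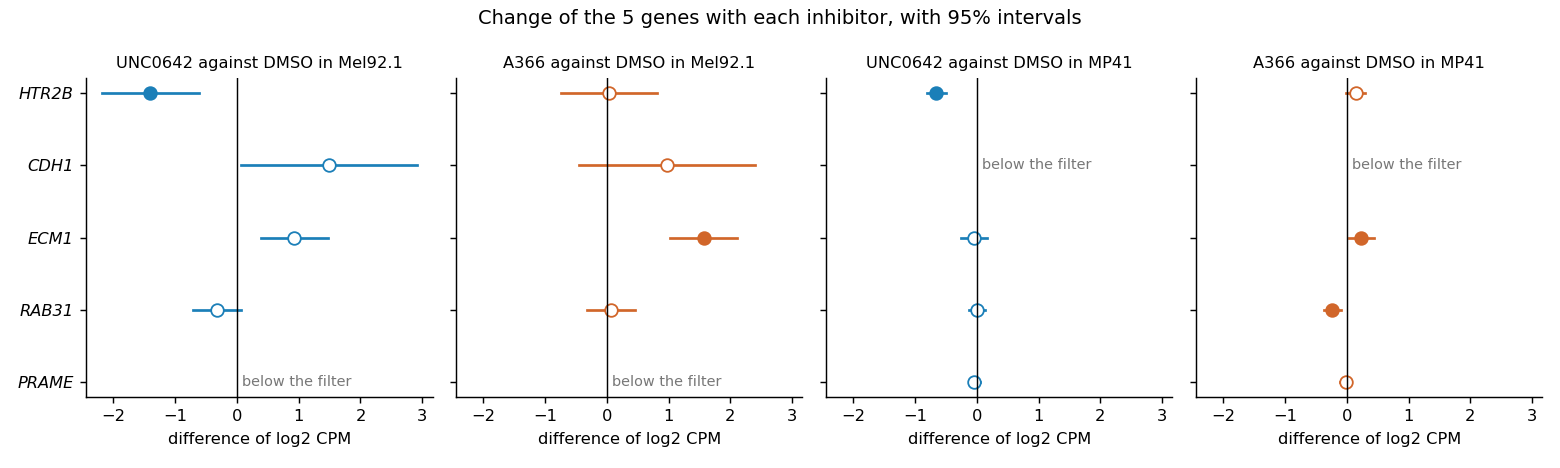
Difference of mean log2 CPM between each inhibitor and DMSO (x axis) for each gene (y axis), by line; lines are 95% intervals from the pooled spread of the libraries of a line, and filled points passed edgeR's test at an adjusted p under 0.05. The filled points are HTR2B with UNC0642 in both lines, ECM1 with A366 in both lines and RAB31 with A366 in MP41.

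The comparison of A366 with DMSO used the same DMSO libraries. ECM1 was higher in both lines, RAB31 was lower in MP41, and HTR2B did not pass in either. In Mel92.1, 1 of 4 members tested was higher and 0 were lower, against 0.213% of genes called. In MP41, 1 of 4 was higher and 1 was lower, against 46% of genes called, so that a call in MP41 was common.

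ECM1 in Mel92.1 held 15.6, 14.6 and 16.8 CPM with A366 against 4.54, 6.22 and 5.20 CPM with DMSO. Every A366 library lay above every DMSO and UNC0642 library of the line. The level was 2.95-fold higher (log2 fold change 1.56, SE 0.22, edgeR adjusted p = 0.0199). As labelled, the value was 4.75 (adjusted p = 0.162), and with A366 replicate 1 alone, without the 4 exchanged libraries, it was 1.54 (adjusted p = 1). The call held in 9 of 19 alternatives and was lost without any 1 of the 3 A366 or 3 DMSO libraries, where the log2 fold change was 1.45 to 1.68 and adjusted p 0.0751 to 0.166.

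In MP41, ECM1 held 211, 192 and 216 CPM with A366 against 174, 164 and 180 CPM, also without overlap. The level was 1.18-fold higher (log2 fold change 0.23, SE 0.084, edgeR adjusted p = 0.0284). The direction turned as labelled (-1.12, adjusted p = 0.349). Without the 4 exchanged libraries the value was 0.24 (adjusted p = 0.0589). The call was also lost without A366 replicates 1 or 3 or DMSO replicates 1 or 2, with log2 fold changes from 0.19 to 0.24 and adjusted p from 0.0683 to 0.106, and with scaling by library totals (0.17, adjusted p = 0.123).

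The A366 response of ECM1 was larger in Mel92.1 than in MP41 by 1.30 on the log2 scale (SE 0.23, edgeR adjusted p = 0.00102). It was the 1 of 5 members that passed, against 13.8% of all genes. The call held in 27 of 28 alternatives, the exception being the fit without the 4 exchanged libraries (1.28, adjusted p = 0.0575). The largest value, 5.83, came from the libraries as labelled. There the A366 groups mix the lines, which differed 32.5-fold in ECM1 with DMSO, so that call is no support.

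RAB31 in MP41 held 97.7, 106 and 96.1 CPM with A366 against 110, 119 and 119 CPM with DMSO, and every A366 library was lower. The level was 1.18-fold lower (log2 fold change -0.23, SE 0.055, edgeR adjusted p = 0.0136). With A366 replicate 1 alone, without the 4 exchanged libraries, it was -0.29. As labelled it was -0.74 (edgeR adjusted p = 0.0264). There the A366 group mixes the lines, which differed 2.19-fold in RAB31 with DMSO, so that value is no support. The call was lost without A366 replicate 1 (-0.21, adjusted p = 0.0699), DMSO replicate 2 (-0.22, adjusted p = 0.0528) or DMSO replicate 3 (-0.22, adjusted p = 0.0580). In Mel92.1, RAB31 held 55.0, 57.0 and 52.5 CPM, within the range of DMSO (log2 fold change 0.056, SE 0.16, edgeR adjusted p = 1). The responses of the lines were not shown to differ (0.27, SE 0.17, edgeR adjusted p = 0.252).

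HTR2B in Mel92.1 held 30.9, 29.9 and 29.2 CPM with A366, overlapping the DMSO libraries (log2 fold change 0.034, 95% interval of the difference -0.75 to 0.81, edgeR adjusted p = 1). In MP41 it held 24.5, 24.5 and 24.3 CPM, above the 3 DMSO libraries (log2 fold change 0.14, SE 0.064, edgeR adjusted p = 0.163). As labelled these values were -0.13 (adjusted p = 0.769) and 0.37 (adjusted p = 0.0569). Without the 4 exchanged libraries they were 0.070 and 0.13. The responses of the lines to A366 were not shown to differ (-0.14, SE 0.32, edgeR adjusted p = 0.775).

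PRAME in MP41 held 231, 223.8 and 238 CPM with A366, overlapping DMSO (log2 fold change -0.019, 95% interval of the difference -0.11 to 0.073, edgeR adjusted p = 0.814). In Mel92.1, PRAME held 5, 10 and 2 counts. CDH1 in Mel92.1 held 24, 45 and 28 counts with A366 (0.584, 0.981 and 0.568 CPM), overlapping DMSO (log2 fold change 0.81, SE 0.58, edgeR adjusted p = 1). In MP41 it held 1, 0 and 3 counts, and the 0 allows up to 0.0604 CPM. Trace counts of PRAME and CDH1 did not show a change at this depth.

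Both inhibitors were given at the same dose and for the same time, and their libraries were set against each other. The paper blotted H3K9me2 in uveal melanoma cells given either inhibitor at 1 µM for 48 h. The extent of EHMT2 inhibition was not measured in these libraries, so an equal effect at this dose is not known from them. Over the 2 lines, 8 pairs of values were tested, each with p-values adjusted over all genes. In MP41, 2 of 4 members were higher and 1 was lower with A366 than with UNC0642, against 43.1% of genes called. In Mel92.1, 0 of 4 passed by edgeR, against 0.165% of 14528 genes called. HTR2B, ECM1 and RAB31 had an unadjusted edgeR p under 0.05, as did 1047 of the 14528 genes. DESeq2 called 1 of the 4 members, and 213 of the 14528 genes.

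HTR2B in MP41 was 1.74-fold higher with A366 than with UNC0642 (log2 fold change 0.80, SE 0.064, edgeR adjusted p = 7.40e-05), with every library apart. This call held in 19 of 19 alternatives. With A366 replicate 1 alone, without the 4 exchanged libraries, the value was 0.78. As labelled it was 1.03 (edgeR adjusted p = 0.00768), but there the A366 group mixes the lines. HTR2B with A366 held 30.0 ± 0.866 CPM in Mel92.1 and 24.4 ± 0.106 CPM in MP41, so that value is no support. In Mel92.1, HTR2B did not overlap between the inhibitors either, with 29.2 to 30.9 CPM against 6.50 to 14.7 CPM. The log2 fold change was 1.31 (SE 0.32) and missed the threshold (edgeR adjusted p = 0.0928). It passed in 4 of 19 alternatives, among them the fit without UNC0642 replicate 1 (1.05, adjusted p = 0.00104).

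ECM1 in MP41 was higher with A366 than with UNC0642 by 0.28 on the log2 scale (SE 0.084, edgeR adjusted p = 0.0131). As labelled the direction turned (-1.07, edgeR adjusted p = 0.368). Without the 4 exchanged libraries, with A366 replicate 1 alone, the difference was 0.29. It passed in 16 of 19 alternatives, and missed the threshold also without UNC0642 replicate 2 (0.19, adjusted p = 0.0544) and with plain library-size scaling (0.21, adjusted p = 0.0657). RAB31 in MP41 was lower with A366 by 0.24 (log2 fold change -0.24, SE 0.055, edgeR adjusted p = 0.0138), and missed the threshold without A366 replicate 1 (adjusted p = 0.0720) or UNC0642 replicate 3 (adjusted p = 0.0564). PRAME in MP41 differed by 0.024 (95% interval of the difference -0.067 to 0.12, edgeR adjusted p = 0.766). In Mel92.1, the differences of ECM1 (0.60, 95% interval 0.093 to 1.18), RAB31 (0.36, -0.0083 to 0.77) and CDH1 (-0.55, -1.94 to 0.92) did not pass.

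**Figure D4:**
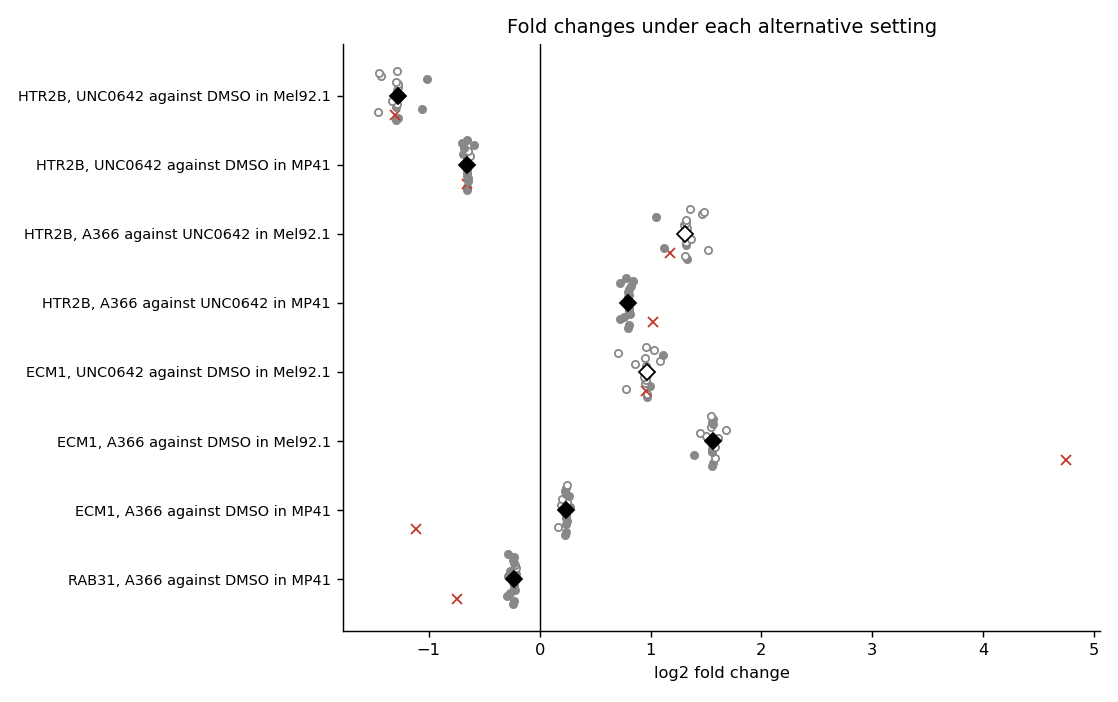
Log2 fold change (x axis) of the members' main comparisons under each alternative setting; diamonds are the reported values, red crosses are the libraries as labelled, grey circles are the other settings, and filled diamonds and circles passed an adjusted p under 0.05. HTR2B in MP41 with A366 against UNC0642 passed in 19 of 19 settings. In the comparisons with A366, the crosses come from groups that mix the lines. The crosses of ECM1 with A366 lie far from its other values, at 4.75 in Mel92.1 and -1.12 in MP41.

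The rest of the clinical panel gave the setting for these changes. Of the 8 class 1 genes, 0 passed with UNC0642 in either line or with A366 in Mel92.1, with median log2 fold changes of 0.14, -0.043 and 0.064. Over all genes tested in these 3 comparisons, the medians were -0.022, 0.0011 and -0.0052. A366 in MP41 left 3 class 1 genes higher and 2 lower, against 46% of genes called. ROBO1, an axon guidance receptor, was lower there (-0.64, edgeR adjusted p = 0.00142). EIF1B (0.34, adjusted p = 0.00248) and ID2, an inhibitor of basic helix-loop-helix factors (0.30, adjusted p = 0.00865), were higher. The 3 control genes passed in none of the first 3 comparisons. In MP41 with A366 they all passed, MRPS21 (0.51, edgeR adjusted p = 0.00357) and RBM23 (0.25, adjusted p = 0.0131) higher and SAP130 (-0.39, adjusted p = 0.0231) lower, beside log2 fold changes of 0.23 for ECM1 and -0.23 for RAB31 in the same libraries.

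**Figure D5:**
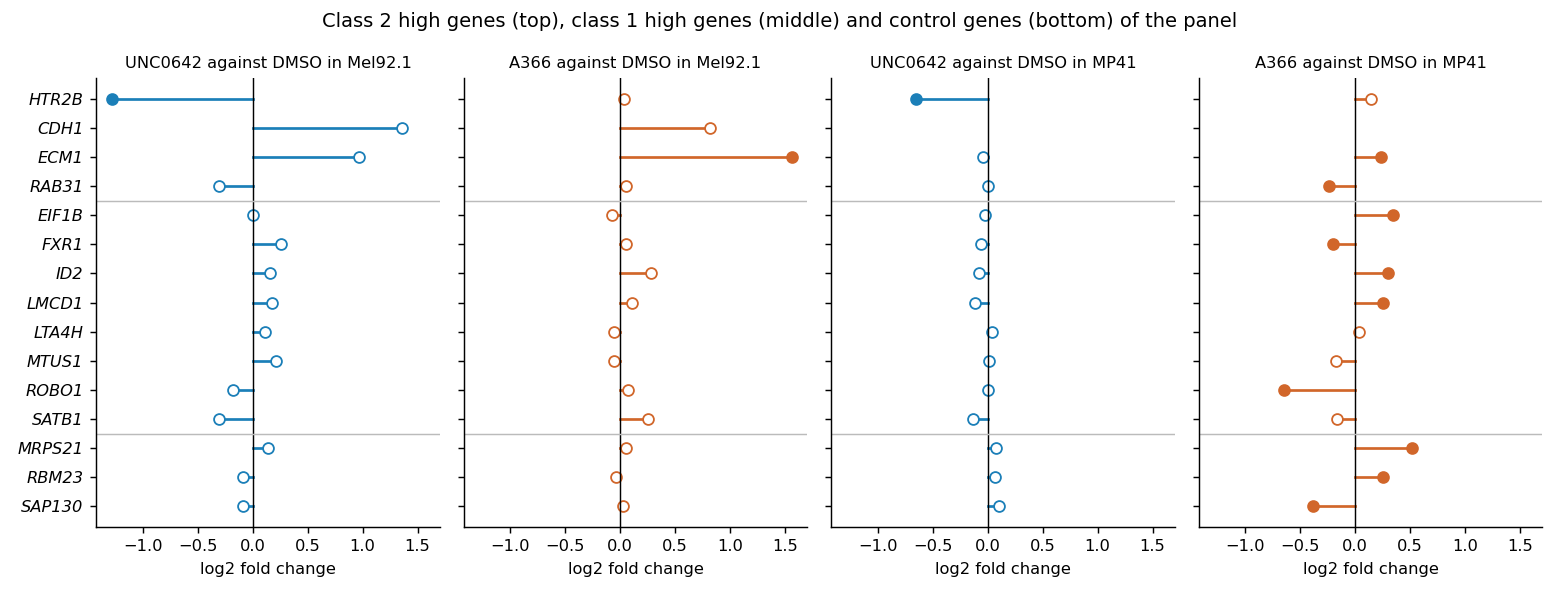
Log2 fold change (x axis) of the panel's genes against DMSO, by inhibitor and line; rows are the class 2 genes at the top, the 8 class 1 genes in the middle and the 3 control genes at the bottom, filled points passed an adjusted p under 0.05, and CDH1 was under the filter in MP41. Outside A366 in MP41, the filled points are HTR2B with UNC0642 in both lines and ECM1 with A366 in Mel92.1.

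Other genes of each member's pathway were read from lists. Of 127 listed genes that are not members, 70 were tested in Mel92.1, where edgeR called 2 with UNC0642 (16 at an unadjusted p under 0.05) and 1 with A366 (7 unadjusted). Over all 14528 genes tested there, 0.688% were called with UNC0642 (1442 unadjusted) and 0.213% with A366 (628 unadjusted). In MP41, 83 were tested, and the calls were 1 with UNC0642 (7 unadjusted) and 42 with A366 (44 unadjusted). Over all 14956 genes tested in MP41, 0.241% were called with UNC0642 (1316 unadjusted) and 46% with A366 (8016 unadjusted), so about as large a share of the listed genes as of all genes was called with A366, and every list count for that comparison is to be read against the 46%. Of the 42, all kept their direction without the 4 exchanged libraries. That setting leaves A366 replicate 1 alone, which is also in the main fit, so it is no independent support. As labelled, where the A366 group mixes the lines, 34 kept their direction and 22 also their call. KRT18 was -3.23 without the 4 libraries and turned to 3.56 as labelled, where its call was lost (edgeR adjusted p = 0.0772). Of 17 serotonin receptor genes, only HTR2B passed the filter on low counts in Mel92.1, and 2 passed it in MP41, where HTR2B was again the only one called with UNC0642. No other gene of the list exceeded 0.452 CPM in any library, and HTR2A, of the same group, was at 0 in 5 of the 6 groups.

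HTR2B lies inside the span of PSMD1, a proteasome subunit gene on the opposite strand, and their transcripts share a stretch of 564 bases. The strand setting of the counting is not given in the sources used here, so reads from that stretch are uncertain. PSMD1 held 133 to 144 CPM in Mel92.1 with DMSO and 144 to 176 CPM with UNC0642 (log2 fold change 0.18, edgeR adjusted p = 0.475). In MP41 it held 228 to 244 CPM and 241 to 248 CPM (0.049, edgeR adjusted p = 0.885). With A366 in MP41 its log2 fold change was -0.26 (edgeR adjusted p = 0.00248). The part of such reads in the HTR2B values was not tested.

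Of 8 cadherin and catenin genes tested in Mel92.1, 0 passed with either inhibitor (medians -0.019 and 0.0025). In MP41, 0 of 6 passed with UNC0642 (median -0.013) and 2 were lower with A366 (median -0.22), CTNNB1, or beta-catenin (-0.26, edgeR adjusted p = 0.00333), and CTNND1, or p120-catenin (-0.28, adjusted p = 0.0394). CDH2, or N-cadherin, named after its values were seen, held 11.4 ± 0.430 CPM in MP41 with DMSO and 0.591 ± 0.101 CPM in Mel92.1. Of the 5 transcription factors that repress CDH1, 0 passed with UNC0642 in either line (medians -0.037 and -0.073) or with A366 in Mel92.1 (median -0.014). In MP41, A366 left TWIST1 higher (0.52, edgeR adjusted p = 0.00185) and ZEB2 lower (-0.59, adjusted p = 0.00149; list median -0.13). Of 12 epithelial genes, 4 were tested in Mel92.1 and 0 passed with either inhibitor (medians 0.058 and 0.16). In MP41, 0 of 7 passed with UNC0642 (median 0.040), and 2 of 7 were lower with A366 (median 0.013). These were KRT8 and KRT18, which encode paired keratins, and KRT18 went from 0.239 to 0.883 CPM with DMSO to 0 to 0.0519 CPM.

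Among genes of proteins known to bind ECM1, LAMB3, a laminin chain, rose beside it with A366 in both lines. It held 0.880 to 1.18 CPM in Mel92.1 with DMSO and 3.83 to 4.42 CPM with A366 (log2 fold change 2.02, SE 0.14, edgeR adjusted p = 0.0169). In MP41 it held 9.34 to 10.6 CPM and 24.6 to 25.2 CPM (1.30, SE 0.069, edgeR adjusted p = 6.62e-06). Without the 4 exchanged libraries these values were 2.06 and 1.29. As labelled they were 4.14 (edgeR adjusted p = 0.162) and 0.15 (edgeR adjusted p = 0.863). The other 5 of 6 tested in Mel92.1 did not pass with A366 (list median -0.078). In MP41 with A366, COL4A1 (-0.63, SE 0.21) and COL4A2 (-0.45, SE 0.087, edgeR adjusted p = 0.00336), chains of collagen IV, were lower (list median -0.059). With UNC0642, 0 of 6 passed in either line (medians -0.20 and 0.049).

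Of 14 genes of the RAB5 group and its effectors, RAB31 included, 0 passed with UNC0642 in either line (medians -0.029 and -0.027) or with A366 in Mel92.1 (median 0.036). With A366 in MP41, 46% of all 14956 genes tested were called, 3362 higher and 3522 lower. Of the 14 genes, 0 were higher and 6 were lower there (median -0.13, against 0.020 over all genes). Besides RAB31 these included GAPVD1, an exchange factor for RAB5 (-0.63, edgeR adjusted p = 8.02e-04), APPL1 (-0.63, adjusted p = 0.00164) and EEA1 (-0.66, adjusted p = 0.00446), both effectors on early endosomes. Between the lines with DMSO, 10 of the 14 were lower in Mel92.1 and 1 was higher (median -0.52), where 69.4% of all genes passed.

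The 4 partners of PRAME in the ubiquitin ligase did not pass in Mel92.1 with UNC0642 (median 0.11) or A366 (median 0.0051), or in MP41 with UNC0642 (median 0.028). With A366 in MP41, ELOB (0.71, edgeR adjusted p = 0.00274), ELOC (0.28, adjusted p = 0.0268) and RBX1 (0.36, adjusted p = 0.0301) were higher and CUL2 (-0.41, adjusted p = 0.00114) was lower. Of the retinoic acid receptors and targets, 0 of 7 passed in Mel92.1 with either inhibitor (medians -0.100 and -0.090) and 0 of 9 in MP41 with UNC0642 (median -0.051). With A366 in MP41, 3 were higher, RARA, RARG and RXRB, and RARB was lower (median 0.27). PRAME did not pass in these libraries.

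Of 18 other cancer testis antigens, 1 was tested in Mel92.1 and 7 in MP41, and 0 passed with UNC0642 in either line (medians 0.67 and 0.13) or with A366 in Mel92.1 (median 0.61). With DMSO, 6 of 7 were lower in Mel92.1 than in MP41, in a comparison that called 69.4% of all genes, 5505 of 15799 lower. MAGEA6, named after its values were seen, held 13.1 to 13.8 CPM in MP41 and was at 0 in the Mel92.1 DMSO libraries, and its reads can be shared with the near-identical MAGEA3. SSX1 was higher with A366 in MP41 (0.42, edgeR adjusted p = 0.0230), where MAGEA4 went from 0.238 to 0.587 CPM to 0 in all 3 libraries (list median 0.28). An antisense gene over PRAME held 6 to 16 counts per MP41 library with DMSO, 3 to 28 with UNC0642 and 10 to 17 with A366, with overlap between the groups, and was at 0 in Mel92.1.

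BAP1, SF3B1 and EIF1AX, the genes whose mutations go with class in uveal melanoma, did not pass with UNC0642 in either line (medians -0.060 and -0.021) or with A366 in Mel92.1 (median 0.027). With A366 in MP41, SF3B1 (-0.58, edgeR adjusted p = 5.71e-04) and EIF1AX (-0.27, adjusted p = 0.00338) were lower (median -0.27). Of the 7 melanocyte markers, TYR (0.49, edgeR adjusted p = 0.00345) and MLANA (0.34, adjusted p = 0.0379) were higher with UNC0642 in Mel92.1 (median 0.24), where HTR2B was lower. DCT was higher with UNC0642 in MP41 (0.62, adjusted p = 0.0291; median 0.063). With A366, 0 of 7 passed in Mel92.1 (median -0.086), and 3 were higher and 3 lower in MP41 (median 0.15). Of the markers of other cell types, 0 of 2 tested passed in Mel92.1 with UNC0642 (median 0.017) or A366 (median 0.35), and 0 of 4 in MP41 with UNC0642 (median 0.78). VWF was higher and ALB lower with A366 in MP41 (median 0.24), ALB from 2.19 to 2.76 CPM to 0.258 to 0.294 CPM. Their part in the members' results was not tested.

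The genes whose levels followed each member most closely were ranked by Pearson's r of log2 CPM after the mean of each line was removed. For HTR2B these were ADAM23 (0.92), TACC2 (0.91) and CHPF2 (0.91), and for ECM1 they were MAT1A (0.91), PHF14 (0.90) and BANCR (0.89), over 18 libraries and 13063 genes. For RAB31 they were MKL1 (0.96), GREB1 (0.96) and ADGRA3 (0.96). Over the 9 Mel92.1 libraries, CDH1 was followed by RB1CC1 (0.98), ZNF292 (0.97) and PDCD4 (0.96), and over the 9 MP41 libraries, PRAME was followed by REEP5 (0.96), MFF (0.95) and IST1 (0.95). The points share treatments, depth and library composition, so these values are descriptions.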

How the data were processed

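RNA was selected with oligo-dT beads and made into strand-specific libraries, per the labels; the series text names ribosomal RNA depletion instead. The authors deposited 1 table of RSEM expected counts for 18 libraries. The submitters' processing notes name hg38, Bowtie2 2.1.0 and RSEM 1.2.15, whereas the study's methods name a mouse build and, beside Bowtie2, TopHat and Cufflinks; the strand setting is not given in the sources used here. Expected counts, of which 5.85% to 13.4% per library were not whole, were rounded.

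Groups came from the labels, except that 4 A366 libraries were placed with the other line. edgeR 4.0.16 (R 4.3.3) was used with filterByExpr, TMM scaling and the quasi-likelihood test, on the 9 libraries of a line, or on all 18 between lines and for differences between responses. P-values were adjusted by Benjamini-Hochberg over all genes tested, with a threshold of 0.05. Printed fold changes and adjusted p-values are edgeR's. SE and 95% intervals come from log2 CPM (prior count 0.5) and the pooled spread, so their centre can differ from the edgeR value, for genes at a few counts also in sign (PRAME, difference between the lines in the response to UNC0642, 0.88 by edgeR and -0.57 in log2 CPM). A count of 0 was given the limit of 3 counts, which like all such limits covers counting error only. Alternatives were DESeq2 1.42.0, limma 3.58.1 voom with sample weights, RLE and plain library-size scaling, 2 other filters, fits of fewer groups, a replicate block, both label alternatives, and leaving out each library.

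The members and the gene lists were chosen with earlier results of these data known. Genes named are the 5 members, up to 4 genes per list that passed against DMSO (smallest adjusted p), genes that overlap a member, and the 3 most alike genes with a mean of at least 1 CPM, unless stated. Shared sequence was searched with BLAST+ 2.17.0 (50 bases, 95% identity): none was found for ECM1, RAB31 or PRAME, and CDH1 shared 132 bases with an antisense gene. Promoters are RefSeq's.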

Additional observations from a re-analysis of the deposited data

Results flagged for a closer look

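The response of ECM1 to each inhibitor differed between the lines by a test of the difference itself (edgeR's quasi-likelihood interaction term with Benjamini-Hochberg adjustment, n = 3 per group). With UNC0642 the log2 fold change was 1.03 higher in Mel92.1 than in MP41 (adjusted p = 0.0196; 0.97 against -0.045). With A366 it was 1.30 higher (adjusted p = 0.00102; 1.56 against 0.23). The starting levels also differed, at 5.32 ± 0.847 CPM in Mel92.1 and 173 ± 8.42 CPM in MP41 with DMSO, and both values use the same DMSO libraries. All 3 Mel92.1 libraries of each inhibitor were above all 3 DMSO libraries. The part of the starting level in the difference was not tested.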

How the results depend on the processing

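Under the alternatives, 769 member values kept their direction and side of the threshold, 62 lost it, 12 gained it and 26 turned. Members called with UNC0642 in Mel92.1 (1) numbered 2 by DESeq2 or voom and 0 as labelled, with library-size scaling, with only the groups compared, with the replicate block or without the 4 exchanged libraries, and 0 to 2 when leaving out 1 library. With A366 in Mel92.1 (1) they numbered 3 by voom and 0 as labelled, with library-size scaling, with the block or without the 4 libraries, and 0 to 1 leaving out 1 library. Between the inhibitors in Mel92.1 (0) they numbered 1 by DESeq2, voom or without the filter, and 0 to 1 leaving out 1 library. Calls over all 14528 genes tested moved too. By the main fit, DESeq2 and voom they were 100, 384 and 413 with UNC0642. With A366 they were 31, 171 and 3087, and between the inhibitors 24, 213 and 214. Library-size scaling called 18 with UNC0642 and 14 with A366, and the block 46 and 10. As labelled, 0 of 14692 genes were called in each of these comparisons. In MP41, UNC0642 (1) gave 0 as labelled and 0 to 1 leaving out 1 library, and A366 (2) gave 1 as labelled, with library-size scaling or without the 4 libraries and 0 to 2 leaving out 1 library. Between the lines with DMSO (5), 3 were called as labelled and 3 to 5 leaving out 1 library. Over all genes, UNC0642 in MP41 had 36 of 14956 called in the main fit and 0 of 15088 as labelled. A366 in MP41 had 6884 of 14956, 4951 of 15088 as labelled and 6633 of 14956 with library-size scaling. Between the lines, 10962 of 15799 genes were called in the main fit and 8734 as labelled. The line difference with UNC0642 (1) gave 0 as labelled, with library-size scaling, with only the groups compared or without the 4 libraries and 0 to 1 leaving out 1 library; that with A366 (1) gave 3 as labelled, 2 by voom and 0 without the 4 libraries. Of all 15799 genes tested, the line difference with UNC0642 was called for 95 in the main fit, 0 as labelled and 25 with library-size scaling. That with A366 was called for 2179 in the main fit, 7801 as labelled and 9276 by voom. Member counts are to be read against these counts over all genes, and the causes were not tested.

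Directions that turned were mostly of values near 0. As labelled, these were CDH1 (-0.90) and HTR2B (-0.13) with A366 in Mel92.1, ECM1 with A366 in MP41 (-1.12) and between the inhibitors there (-1.07), PRAME between the inhibitors in MP41 (-1.56), and the line differences with A366 of CDH1 (-3.80) and PRAME (11.44). With UNC0642 in MP41, RAB31 was -0.0016 by DESeq2, -0.0011 without the filter and -0.0016 by RLE scaling. With library-size scaling, PRAME between the inhibitors in MP41 was -0.047 and the CDH1 line difference with UNC0642 was -0.019. Leaving out 1 library, values ran from -0.0067 to 0.17 for RAB31 (A366, Mel92.1), from -0.11 to 0.035 for ECM1 and -0.031 to 0.030 for RAB31 (UNC0642, MP41), from -0.047 to 0.00018 for PRAME (A366, MP41) and -0.0069 to 0.047 (inhibitors, MP41). Line differences ran from -0.33 to 0.95 for CDH1 and -0.30 to 1.49 for PRAME with UNC0642, and from -1.01 to 0.25 for PRAME with A366.

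The replicate numbers were not shown to pair the libraries (3 of 18 same-number pairs correlated over 0.1, range -0.40 to 0.37). Pairs of different numbers were not compared, so this check cannot decide whether the libraries were paired. With the replicate block, HTR2B with UNC0642 was -1.33 in Mel92.1 (adjusted p = 0.122) and -0.66 in MP41 (adjusted p = 0.0465), and ECM1 with A366 in Mel92.1 was 1.58 (adjusted p = 0.0596). A filter at a mean of 1 CPM left no CDH1 value. Depth limits CDH1 everywhere and PRAME in Mel92.1, and n = 3 and the 4 exchanged libraries limit the A366 results.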
